A study of Homo sapiens with 19 samples.

Results

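The EGR, NR4A and IER immediate-early genes were followed through the RNA-seq and eCLIP tables of SH-SY5Y cells, a human neuroblastoma line that grows as sympathetic-like neuroblasts. The set held 10 genes of the 19942 rows for protein-coding genes, namely EGR1, EGR2, EGR3, EGR4, NR4A1, NR4A2, NR4A3, IER2, IER3 and IER5. They were chosen by gene family with their rise after sodium arsenite (AS) in the rRNA-depleted RNA already known, so that rise is described here and not tested. In that table the genes were held by 56 of 256980 transcripts.

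Arsenite is an oxidative stressor that halts translation and drives mRNAs into stress granules (SGs), cytoplasmic condensates whose main scaffolds are the RNA-binding proteins G3BP1 and G3BP2. The rRNA-depleted libraries came from untreated cells and from cells given 500 μM AS for 1 h. Poly-A libraries came from cells transfected with control siRNA (siCtrl), with siRNA to G3BP1 (siG3BP1) or with siRNA to G3BP2 (siG3BP2), from SG cores pulled down with an antibody to G3BP1 after AS (SG), and from the cleared lysate of the same AS-treated cells before that pulldown (Total). The study's methods name poly-A selection for the knockdown libraries and give no selection for SG and Total, which are grouped with them under that name below. Each of these 7 RNA-seq conditions was 1 library, so none of their differences has a replicate check. The sample labels give 50 mM AS for 1 h for all poly-A and eCLIP libraries, the siRNA and untreated ones included, whereas the study's methods give the dose of the rRNA-depleted set and no arsenite for the knockdowns. In eCLIP, RNA crosslinked to G3BP1 or to G3BP2 was sequenced in duplicate from untreated and from AS-treated cells, 8 libraries in all, and nothing in the labels says that duplicates came from separate cultures.

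Immediate-early genes are transcribed within minutes of a stimulus from factors that are already present, without new protein synthesis. EGR1 to EGR4 encode zinc finger transcription factors that bind GC-rich promoters, and EGR1, EGR2 and EGR3 are held in check by the corepressors NAB1 and NAB2. NR4A1 (Nur77), NR4A2 (Nurr1) and NR4A3 (NOR1) are orphan nuclear receptors that act without a known ligand, and NR4A1 and NR4A2 can also pair with RXR partners. IER2, IER3 and IER5 encode short-lived regulators without a DNA-binding fold of these kinds. In neurons the EGR and NR4A genes are known as markers of recent activity.

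The EGR and IER genes are short and have few introns, whereas NR4A1 spans 36676 bp and NR4A3 45037 bp. The longest transcripts of NR4A2 and NR4A3 have 8 and 9 exons. That of NR4A1, a retained-intron transcript, has 3. Over the 10 genes the median span was 5162 bp in GENCODE release 44, against 27593 bp over 19892 protein-coding genes. The median exon number of the longest transcript was 2 against 7. Transcript length itself was ordinary, with a median of 3314 nt against 3336 nt. The GC content of the longest transcript had a median of 55.2% against 48.7%. On GRCh38, EGR1 lies at chr5:138465479-138469303 on the plus strand, IER2 at chr19:13150411-13154911 on the plus strand and IER5 at chr1:181088700-181092900 on the plus strand. EGR2 lies at chr10:62811996-62819167 and EGR4 at chr2:73290929-73293701, both on the minus strand, as is IER3 at chr6:30743199-30744548. NR4A1 lies at chr12:52022832-52059507 and NR4A3 at chr9:99821855-99866891, both on the plus strand, and NR4A2 at chr2:156324437-156342348 on the minus strand.

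RefSeq start sites (GRCh38.p14) were at hand for 7 of the 10 genes, and windows from 500 bases before to 50 after each site were searched on both strands. The windows held CArG boxes, the sites of serum response factor (SRF), at EGR1 and EGR2, while 2.56% of 35093 start sites held any. EGR1 had 5 of them and was the only start site of the 35093 with 3 or more. One of the 3 EGR2 start sites had 2. The boxes are shown because SRF sites are the best-known control elements of this gene class, with each box in capitals, 30 bases a line, read 5′ to 3′ on the gene's strand. The first 5 lines belong to EGR1 and lie at chr5:138465051-138465080, chr5:138465089-138465118, chr5:138465105-138465134, chr5:138465364-138465393 and chr5:138465386-138465415. The last 2 belong to EGR2, at chr10:62816717-62816746 and chr10:62816418-62816447, and neighbouring EGR1 lines share bases.
EGR1, 408 bases before the start: cccggaaatgCCATATAAGGagcaggaagg
EGR1, 370 bases before the start: ccggaacaacCCTTATTTGGgcagcacctt
EGR1, 354 bases before the start: ttgggcagcaCCTTATTTGGagtggcccga
EGR1, 95 bases before the start: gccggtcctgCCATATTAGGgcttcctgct
EGR1, 73 bases before the start: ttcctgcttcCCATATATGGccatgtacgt
EGR2, 360 bases before the start: cggatcttcgCCTTTTTTGGaaagtcccag
EGR2, 61 bases before the start: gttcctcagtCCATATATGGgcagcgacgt

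The CRE TGACGTCA, the NR4A site AAAGGTCA, the EGR site GCGTGGGCG and a heat shock element (the HSF1 site) were searched in the same windows and were in none of the 10 start sites of the 7 genes. Over all start sites they were present in 2.19%, 2.27%, 1.13% and 0.878%. AU-rich elements, which shorten the life of many immediate-early mRNAs, were counted in the 3′ untranslated region of each gene's longest coding transcript. The nonamer TTATTTATT, present in 8.72% of 19103 genes, was found only in IER5 among the 10 genes, where 3 overlapping copies begin 2567 bases after the stop codon. The pentamer ATTTA ran from 0 copies in EGR4 and IER2 and 1 copy in EGR1 to 10 copies each in NR4A3 and IER5, with a median of 2 over all genes. The first IER5 copy is shown with its nonamer in capitals.
IER5, 3′ untranslated region: gtgtcttcctTTATTTATTtatttatttaa

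The RNA-seq tables matched the labels where they could be checked. G3BP1 was at 18.7 TPM in siCtrl, 6.0 in siG3BP1 and 16.5 in siG3BP2, and G3BP2 at 38.1, 39.4 and 11.4 TPM. Of 16 markers of SH-SY5Y cells, 15 were above 10 TPM in all 5 poly-A libraries, and TH, which makes the catecholamine precursor, stayed under 1 TPM in each. Of 8 markers of other cell types, 6 stayed under 1 TPM, and the summed level of the 8 ran from 11.3 to 48.3 TPM, most of it COL1A1. In these bulk libraries, fewer cells of a kind and less RNA per cell cannot be told apart. The rRNA-depleted values behave as RPKM (reads scaled by transcript length and library size), although the header calls them TPM. They resolve into whole reads of libraries of 13291958 reads (untreated) and 11281587 reads (AS), so intervals from read numbers are given below. These are exact 95% intervals, and they cover counting error only. Because a read is counted on every transcript that it overlaps, the reads are those of the best-covered transcript of each gene.

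EGR1 had the largest AS to untreated ratio of the 10 genes in rRNA-depleted RNA. Its single transcript, EGR1-201, had 17 reads (9.90 to 27.2) in the untreated library and 4745 (4611 to 4882) in the AS library. The RPKM values were 0.408 and 134, a ratio of 329 with an interval of 205 to 565. EGR2, which drives myelination in Schwann cells, had 5 reads (1.62 to 11.7) and 33 (22.7 to 46.3) on EGR2-201, a ratio of 7.78 (3.02 to 25.5). EGR3 had 1 read (0.0253 to 5.57) and 36 (25.2 to 49.8) on EGR3-201, a ratio of 42.4 whose interval, 7.14 to 1721, was wide because of the single untreated read. EGR4 had 0 reads untreated (upper limit 3.69) and 5 (1.62 to 11.7) with AS on EGR4-202, and the lower limit of its ratio was 1.08. The read intervals of the libraries did not overlap for EGR1, EGR2 and EGR3, whereas those of EGR4 did. They are intervals of reads not scaled to library size, and the share of all transcripts without overlap was not counted. Nothing is read from the lack of overlap, because the set was chosen on this contrast.

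The NR4A genes had smaller ratios. NR4A1 had 46 reads (33.7 to 61.4) and 93 (75.1 to 114) on NR4A1-215, a retained-intron transcript, a ratio of 2.38 (1.66 to 3.47). Summed over its 22 transcripts, 18 of which were higher and 3 lower with AS, the value went from 16.2 to 30.1, a ratio of 1.85. NR4A3 had 10 reads (4.80 to 18.4) and 28 (18.6 to 40.5) on NR4A3-204, a ratio of 3.30 (1.56 to 7.61). NR4A2, a factor needed by dopamine neurons, was listed at 0 on all 11 transcripts in both libraries.

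Of the IER genes, IER2 was the most abundant and went from 173 reads (148 to 201) to 730 (678 to 785) on IER2-203, a ratio of 4.97 (4.21 to 5.90). IER5, which modulates heat shock factor HSF1, went from 86 reads (68.8 to 106) to 216 (188 to 247), a ratio of 2.96 (2.29 to 3.85). IER3, an anti-apoptotic NF-κB target, was listed at 0 on both transcripts. The plot of reads by gene shows the spread of these responses, from EGR1 to the 2 genes without a read.

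**Figure D1:**
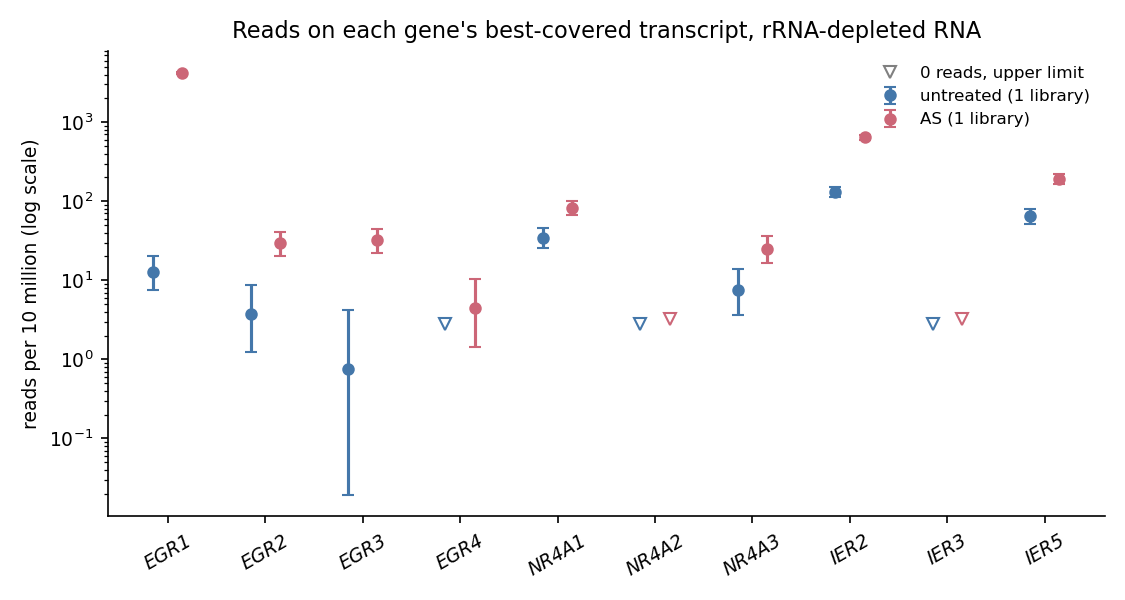
Reads scaled to the same library size (log scale) on the best-covered transcript of each of the 10 genes in the untreated (blue) and AS (red) rRNA-depleted libraries, with exact 95% Poisson intervals; open triangles are upper limits where no read was counted. EGR1 went from 17 to 4745 reads, and NR4A2 and IER3 had 0 reads in both libraries.

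A gene was called higher when its RPKM summed over transcripts was more than 2-fold up with the higher library above 1, and lower at under 0.5-fold. The members nearest the threshold were NR4A1, outside it at 1.85, and IER5, inside it at 2.96. By that rule 6 of the 10 genes were called higher, EGR1, EGR2, EGR3, NR4A3, IER2 and IER5, and none lower. The sums count a read once on every transcript that it overlaps. EGR2, EGR3 and NR4A3 passed the filter only on such sums (3.73, 3.53 and 1.73 with AS). Their highest single transcripts with AS were at 0.982, 0.970 and 0.480. The median ratio of summed values over the 7 genes above 1 was 2.39 on the log2 scale, against 0.28 over all genes tested. EGR1, EGR2, EGR3 and NR4A3 passed the filter only through the AS library. Over all 16457 genes tested, 9.79% were called higher and 3.93% lower. Nothing is read from the share higher or from the median of the 7, because the set was chosen on this contrast. The median gene above 1 in both libraries had a ratio of 1.203, and the same 6 genes were called after this shift was removed. That rescaling changed the split over all genes from 1611 higher and 647 lower to 900 and 895.

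Overlapping genes limit some of these values, since the sources used here do not say whether strand was used in counting. ENSG00000267598, a lncRNA antisense to IER2, was at 1.52 untreated and 15.9 with AS, and NR4A1AS, antisense to NR4A1, at 1.02 and 3.16. If strand was not used, reads of these genes and of IER2 and NR4A1 cannot be told apart. EGR1, EGR4, NR4A2 and IER5 overlap no other annotated gene. NR4A1 transcripts share stretches of 50 bases with transcripts of 72 other genes elsewhere in the genome, and IER5 with 13.

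Other parts of the immediate-early programme moved in the same libraries. Of 45 other immediate-early genes, 40 were above 1, 26 of these were called higher and none lower, with a median of 1.39 on the log2 scale. FOS and FOSB, components of the AP-1 factor, went from 0.768 to 236 and from 0.646 to 51.8 in summed value. SIK1, a kinase induced by cAMP, was listed at 0 untreated and at 3.25 with AS. At the other end MYC was at 92.3 and 81.6, DUSP2 at 1.76 and 1.19, and GEM at 9.12 and 8.44. The genes for what acts upstream of this class, MAP kinases and the factors SRF, ELK and CREB that sit on its promoters, were mostly steady. Of 25 such genes, 24 were above 1, 1 was called higher, MAP2K1 (8.07 to 16.8), and none lower, with a median of 0.18 on the log2 scale. Of 8 corepressors, RXR partners and relatives, 4 were above 1 and 1 was called higher, NAB2 (6.23 to 13.6), whose protein represses EGR factors. The related NAB1 was at 42.4 and 54.0.

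The comparison of Total with siCtrl gave a second view of AS. However, Total was also a cleared lysate from cells without siRNA, and the methods do not give its RNA selection. The treatment cannot be told apart from these differences. EGR1 was at 8.08 TPM in siCtrl and 269 TPM in Total, a 29.8-fold difference on the TPM + 1 scale. IER2 was at 46.8 and 123 TPM, a 2.59-fold difference. Both were called higher, as 1.28% of 12173 genes were, and no member was called lower, as 19.6% were, although with a pseudocount of 0.1 NR4A3 was (-1.16 on the log2 scale). EGR2 was at 0.269 and 1.27 TPM, a 1.79-fold difference that did not reach the threshold. The values of the other members ran against those in rRNA-depleted RNA or were too low to compare. IER5 was at 15.9 TPM in siCtrl and 8.98 in Total, NR4A1 at 7.10 and 5.54, and NR4A3 at 1.51 and 0.623, none of them called. The median gene above 1 TPM in both libraries had a ratio of 0.750, and once this shift was removed the NR4A1 ratio was 1.03, whereas those of IER5 (0.766) and NR4A3 (0.728) remained below 1. The EGR2 ratio was then 2.12 and passed the threshold, and the split over all genes went from 156 higher and 2387 lower to 445 and 1317. EGR3, EGR4, NR4A2 and IER3 stayed under 1 TPM in both.

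Among 45 other immediate-early genes, 39 were above 1 TPM in siCtrl or Total, with 7 called higher and 9 lower. FOS (2.71 and 174 TPM), FOSB (0.206 and 16.9) and JUN (22.1 and 216) stood highest, and SGK1 (47.6 and 5.62), MYC (84.5 and 24.0) and SRF (30.5 and 9.15) lowest. The median of this list was -0.17 on the log2 scale, against 0.26 for the 6 members above 1 TPM and -0.41 over all genes tested. Of the 25 upstream genes, 24 were above 1 TPM, 8 were called lower and none higher, among them MRTFB (4.62 and 0.176 TPM), a coactivator of SRF. Of the 8 partner genes, 6 were above 1 TPM and 2 were called lower, NAB1 (15.4 and 3.98) and HSF1 (39.7 and 11.97), with none higher.

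EGR1 was the most abundant protein-coding mRNA in the SG cores. It stood at 3277 TPM in SG and at 269 TPM in Total, ranks 1 and 343 of the table, and made up 0.445% of the summed SG values against 0.0432% of those in Total. The next genes in SG were ACTB at 3166 TPM and HSP90AB1 at 1547 TPM. On the TPM + 1 scale EGR1 was 12.1-fold higher in SG. The ratio itself was not extreme, at percentile 87.6 of all genes, since SG values were higher for most genes that passed the filter.

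NR4A3 had the largest SG to Total ratio of the set, 15.2, from 0.623 TPM in Total to 23.6 in SG. EGR3 went from 0.431 to 10.7 TPM (8.19-fold), NR4A1 from 5.54 to 46.0 TPM (7.19-fold) and EGR2 from 1.27 to 9.35 TPM (4.56-fold). IER5 went from 8.98 to 39.2 TPM (4.03-fold). IER2, although at 241 TPM in SG, was only 1.96-fold above its 123 TPM in Total and stayed just under the threshold of 2. The remaining genes were near the floor in SG, EGR4 at 0.317 TPM, NR4A2 at 0.162 and IER3 at 0.537.

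**Figure D2:**
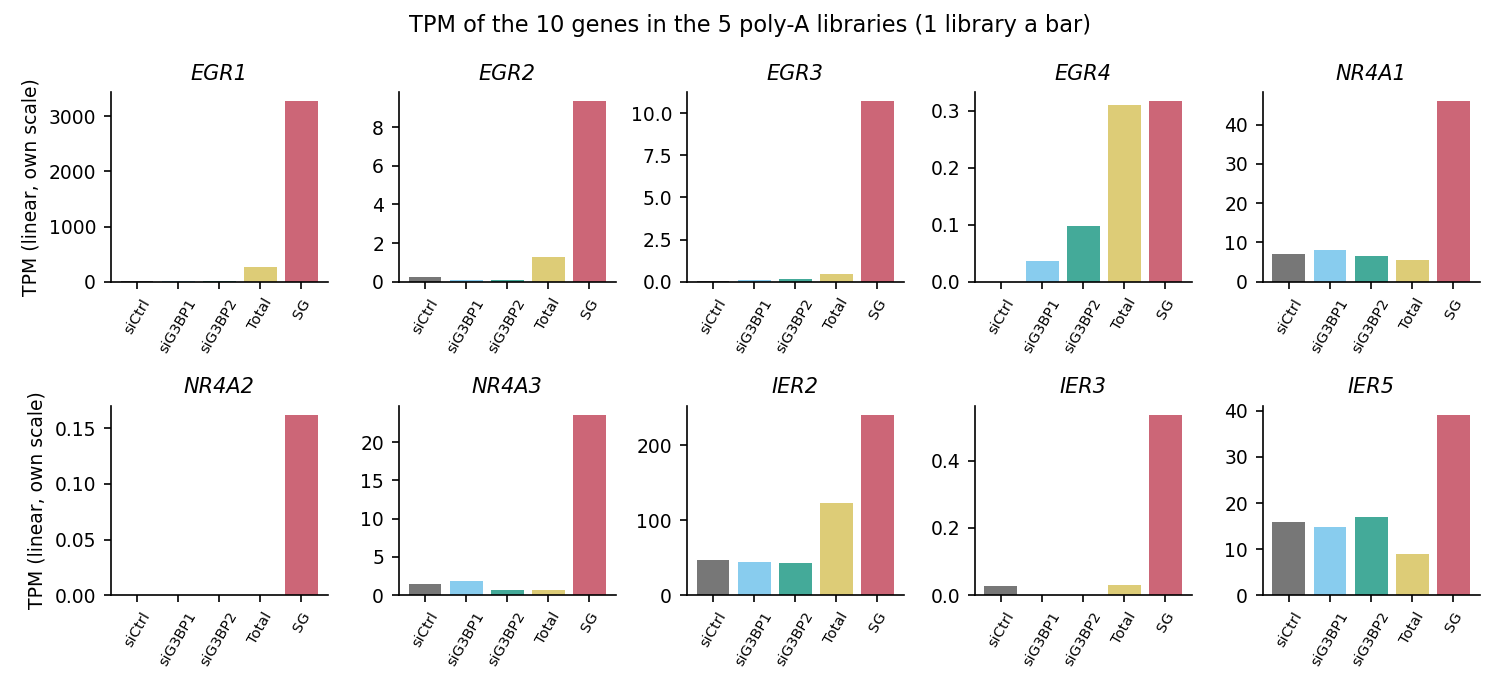
TPM of each of the 10 genes in the siCtrl, siG3BP1, siG3BP2, Total and SG libraries, 1 library a bar, on a linear axis of its own for each gene. SG was the highest bar for each gene, at 3277 TPM for EGR1 and 0.162 TPM for NR4A2 in SG.

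The 6 members EGR1, EGR2, EGR3, NR4A1, NR4A3 and IER5 were thus SG-enriched, meaning an SG to Total ratio above 2 with SG above 1 TPM, and none was depleted. The background was high, with 62.9% of 13560 genes enriched and 9.45% depleted, so 6 of the 7 members above 1 TPM is not far from the share of all genes. The median ratio of the 7 was 2.85 on the log2 scale, against 1.51 over all genes tested. EGR3 (0.431 TPM in Total) and NR4A3 (0.623 TPM) passed the filter only through SG, where they were high. The median of the 7 is therefore a description. The median gene above 1 TPM in both libraries was 2.78-fold higher in SG. Relative to this shift EGR1 (4.37-fold), EGR3 (3.40-fold), NR4A1 (2.69-fold) and NR4A3 (5.85-fold) remained above 2, whereas EGR2 (1.93-fold) and IER5 (1.52-fold) did not and IER2 (0.710-fold) changed direction. Over all genes the split went from 8528 enriched and 1282 depleted to 4505 and 3271. The histogram of all genes places IER2 below the median and EGR1 and NR4A3 in its upper shoulder.

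**Figure D3:**
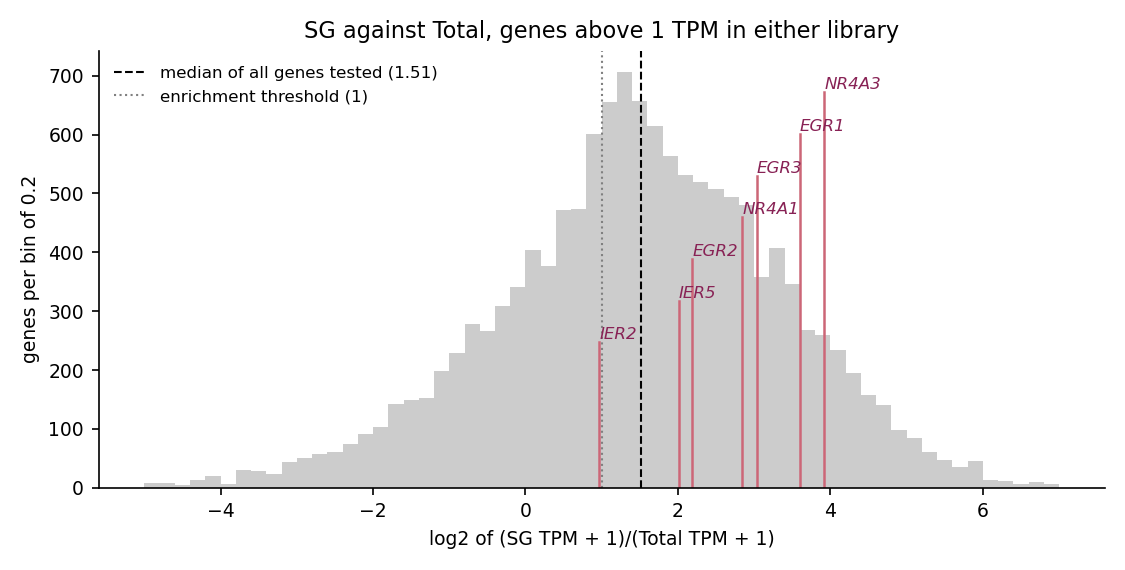
Histogram of log2 (SG TPM + 1)/(Total TPM + 1) over 13560 genes above 1 TPM in either library (bins of 0.2), with the 7 members that passed this filter as red lines whose heights carry no value. The dashed line is the median of all genes (1.51) and the dotted line the enrichment threshold; IER2 lies at 0.97 and NR4A3 at 3.92.

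Of the other immediate-early genes, 42 of 45 were above 1 TPM in SG or Total and 38 were SG-enriched, with a median of 2.19 on the log2 scale. TRIB1 (2.7 TPM in Total and 50.3 in SG), SRF (9.15 and 113) and MCL1 (36.2 and 414) had the largest ratios, and IER5L (28.4 and 29.7), JUND (214 and 272) and DUSP2 (4.29 and 7.71) the smallest. Among the 25 upstream genes, 21 were enriched and 1 depleted, the kinase gene MAP2K2 (222 TPM in Total and 78.2 in SG). MRTFB (0.176 and 69.6), ELK3 (6.14 and 110) and RPS6KA3 (1.36 and 32.0) had the largest ratios of this list. The partner genes NAB1 (3.98 and 69.1), RXRA (3.04 and 44.1) and NAB2 (19.3 and 52.7) were enriched, and the other 3 above 1 TPM, HSF1, RXRB and PPP2R2A, were not.

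Knockdown of either G3BP protein left the members without a call. With siG3BP1, 5 members were above 1 TPM and 0 were called, where 1.12% of 12280 genes were called higher and 1.98% lower. With siG3BP2, the same 5 were above 1 TPM and 0 were called, where 1.23% of 12229 genes were called higher and 2.89% lower (150 and 353 genes, or 193 and 290 after rescaling to a median ratio of 1). EGR1 was at 8.08 TPM in siCtrl, 5.35 in siG3BP1 and 6.16 in siG3BP2, ratios of 0.700 and 0.789. NR4A3 was at 1.51, 1.79 and 0.695 TPM, ratios of 1.11 and 0.674. NR4A1 (7.10, 8.05 and 6.60 TPM), IER2 (46.8, 43.8 and 43.1 TPM) and IER5 (15.9, 14.7 and 17.1 TPM) had ratios to siCtrl between 0.923 and 1.12. With 1 library per condition, these differences cannot be set against any replicate spread.

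Under siG3BP1 there were 0 calls among the 3 lists, from which nothing is read given the small share of all genes called. Under siG3BP2 none of the other immediate-early genes was called, while 2 of the 25 upstream genes were lower, MRTFB (4.62 to 1.28 TPM) and MRTFA (10.2 to 4.30 TPM), both coactivators of SRF. Of the partner genes, RXRA, a dimer partner of NR4A1 and NR4A2, went from 5.64 to 0.539 TPM and HSF1 from 39.7 to 14.9 TPM, and both were called lower.

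The eCLIP values of EGR1 were lower after AS in every library, while its RNA was far higher in the AS-treated RNA-seq libraries. The deposited values are log10, and each value between 0 and 1 was the log10 of a whole number plus 1 (tolerance 0.001), so the low values are given below as those numbers. The headers call the values peaks, but the sources used here do not say what these numbers count, such as reads over a gene or reads in peaks. The values are therefore not read as amounts of bound mRNA. EGR1 had 30 and 29 for G3BP1 and 18 and 15 for G3BP2 in untreated cells. After AS it had 1 and 2 for G3BP1 and 0 and 2 for G3BP2. The 4 AS values all lay below the 4 untreated values. On the log10 scale the G3BP1 value went from 1.49 ± 0.0071 to 0.39 ± 0.13 and the G3BP2 value from 1.24 ± 0.057 to 0.24 ± 0.34 (mean ± SD, n = 2 libraries each).

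IER2 showed the same pattern. It had 65 and 34 for G3BP1 and 54 and 33 for G3BP2 in untreated cells, and 0 and 8 for G3BP1 and 3 and 12 for G3BP2 after AS. Again no AS value reached any untreated value. The change was -1.21 for G3BP1 and -0.78 for G3BP2 on the log10 scale, against -1.10 and -1.0 for EGR1. The 2 proteins were not shown to differ in this change, by 0.43 for IER2 (unadjusted p = 0.540) and 0.095 for EGR1 (unadjusted p = 0.888) in limma over all 8 libraries, with adjusted p = 1 for both.

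**Figure D4:**
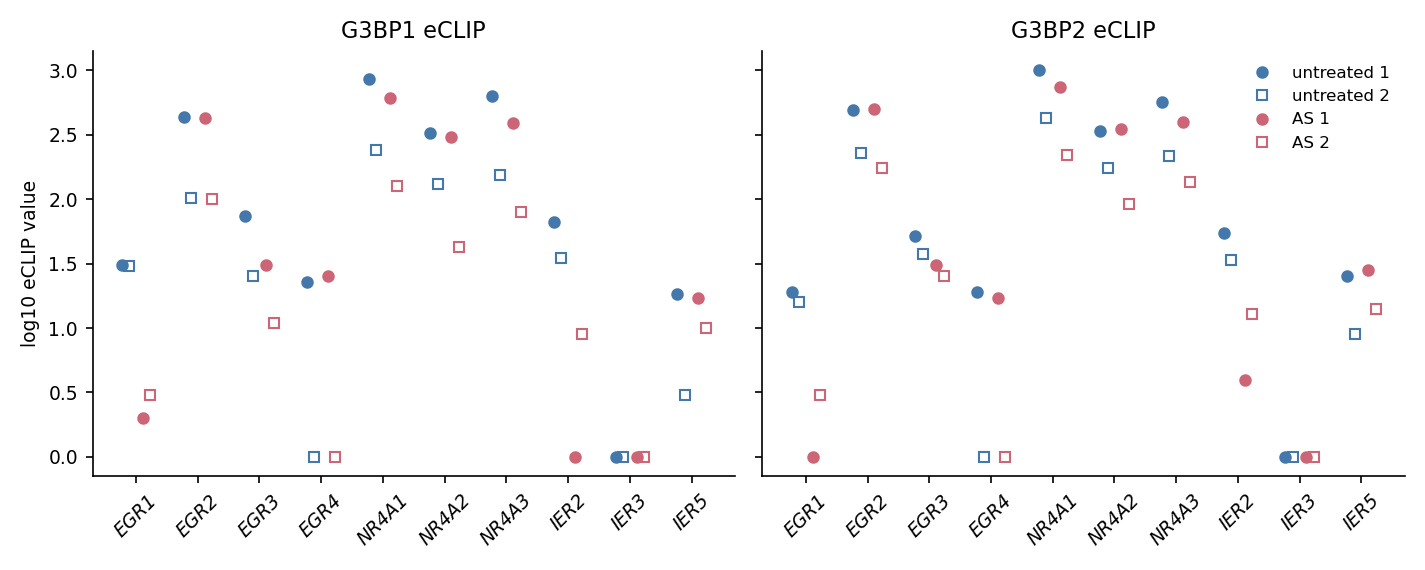
Deposited log10 eCLIP values of the 10 genes for G3BP1 (left) and G3BP2 (right), with untreated libraries in blue and AS libraries in red, and duplicate 1 as filled circles and duplicate 2 as open squares. EGR1 and IER2 are the genes whose red points all lie below the blue points in both panels; IER3 is at 0 throughout.

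Non-overlap of this kind, with both AS duplicates below both untreated duplicates for G3BP1 and again for G3BP2, was found for 2 of the 9 members above 0 in at least 4 libraries. It held for 0.91% of 18898 genes. When libraries were scaled to the same total it held for EGR1, IER2, NR4A1 and NR4A3, that is 4 of 9 members, and for 4.34% of all genes. By the mean change over both proteins, EGR1 had 19 of the 18898 genes below it and IER2 had 25, or 35 and 52 genes after scaling to the same total. The fit across all genes did not call them. In limma's moderated test with Benjamini-Hochberg adjustment, 0 of 18888 genes passed for G3BP1 (0%, with 46 genes at unadjusted p under 0.05) and 2 of 19035 for G3BP2 (0.0105%), ANAPC11 and EIF6, both higher with AS. The unadjusted p of EGR1 was 0.0654 for G3BP1 and 0.0217 for G3BP2, that of IER2 was 0.0472 and 0.0709, and every adjusted p of the members was 1. These p-values rest on a spread between deposited duplicates that limma draws partly from all genes, not from each gene alone. For G3BP1, the EGR1 duplicates had SDs of 0.0071 (untreated) and 0.13 (AS). The limma interval of the EGR1 change was still wide, from -2.26 to 0.070. The IER2 duplicates lay farther apart, with SDs of 0.20 (untreated) and 0.67 (AS) for G3BP1. The G3BP1 p-value of EGR1 therefore does not show that its own duplicates were scattered. Library totals ran from 4268911 to 26179736, the second duplicate of each group being the smaller. With libraries scaled to the same total, limma's unadjusted p for EGR1 was 0.0411 for G3BP1 and 0.0486 for G3BP2. For IER2 it was 0.102 and 0.110. Genes at unadjusted p under 0.05 went from 46 to 482 for G3BP1 and from 159 to 635 for G3BP2, and none passed adjustment. The part of library size in the result was not tested beyond this. The eCLIP lysate was the soluble fraction, so RNA in the insoluble fraction was not sampled.

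For the remaining members the deposited values showed no such separation in both proteins. NR4A1 had the highest values of the set, 2.93 and 2.38 for G3BP1 and 3.0 and 2.63 for G3BP2 untreated, and 2.78, 2.1, 2.87 and 2.34 after AS. NR4A3 went from 2.80, 2.19, 2.75 and 2.33 to 2.59, 1.90, 2.60 and 2.13, and NR4A2, whose RNA was at or near 0 in every RNA-seq library, from 2.51, 2.12, 2.53 and 2.24 to 2.48, 1.63, 2.54 and 1.96. For these 3 genes the groups overlapped for G3BP1 and for G3BP2, and duplicate 2 was lower than duplicate 1 throughout.

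EGR2 had 2.64, 2.01, 2.69 and 2.36 untreated and 2.63, 2.0, 2.7 and 2.24 after AS, with no common direction. EGR3 had 1.87, 1.40, 1.71 and 1.57 untreated and 1.49, 1.04, 1.49 and 1.40 after AS, and its groups overlapped for G3BP1 but not for G3BP2. EGR4 was above 0 in the first duplicate of each group alone (1.36 and 1.28 untreated, 1.40 and 1.23 after AS). IER5 had 1.26, 0.48, 1.40 and 0.95 untreated and 1.23, 1.00, 1.45 and 1.15 after AS. IER3 was at 0 in all 8 libraries. Per kilobase of the summed span of its annotated transcripts, EGR1 had 7.84 and 7.58 for G3BP1 in untreated cells. The medians over all genes were 3.35 and 0.882. After AS it had 0.261 and 0.523, against medians of 3.15 and 0.544. This divisor grows with the number of annotated transcripts, of which EGR1 has 1, so the standing of EGR1 against the medians depends on it. Undivided, the untreated EGR1 values of 1.49 and 1.48 lay below the library medians of 2.44 and 1.9.

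Among the 45 other immediate-early genes, 5 had the same non-overlap for both proteins, DUSP1, FOS, JUNB, JUND and RHOB. FOS went from 1.93, 1.83, 2.09 and 1.89 to 1.11, 0.90, 1.72 and 0.70, with G3BP1 duplicates before G3BP2 duplicates. BHLHE40 stood at the other end of the list, with 0, 1.11, 0 and 1.04 untreated and 1.57, 1.11, 1.68 and 0.95 after AS. The median change over both proteins was -0.21 on the log10 scale for the 9 members, -0.17 for the other immediate-early genes and -0.095 over all genes. None of the 24 upstream and none of the 6 partner genes tested had this non-overlap. As it held for only 0.91% of 18898 genes, nothing is read from its absence in these short lists.

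**Figure D5:**
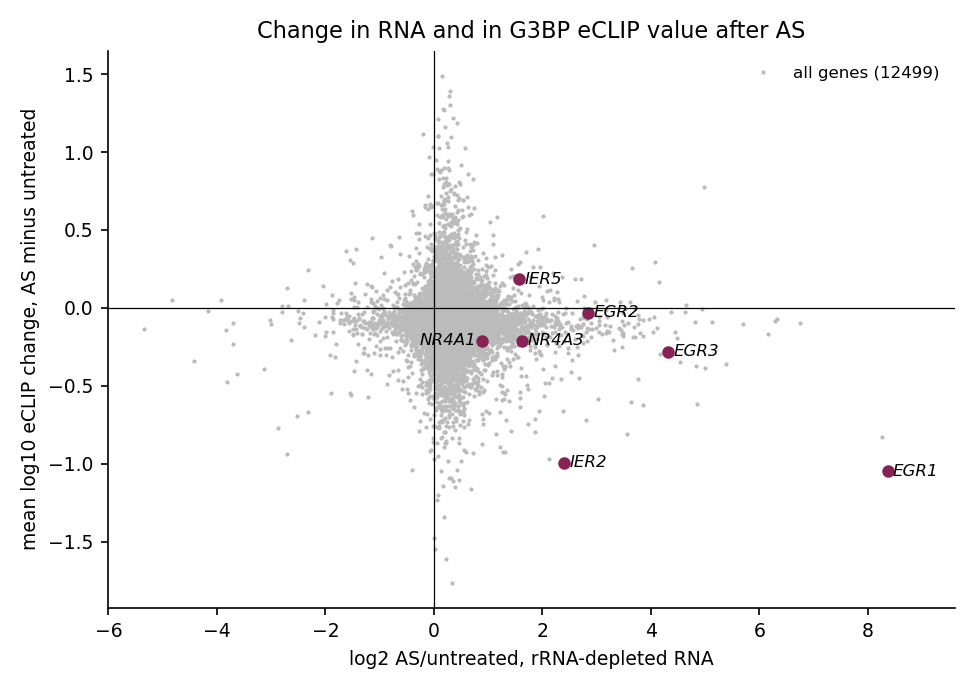
Mean log10 eCLIP change over the G3BP1 and G3BP2 duplicates (AS minus untreated, vertical) against the log2 AS to untreated ratio of summed values in rRNA-depleted RNA (horizontal), for 12499 genes in grey and the 7 members with values in both libraries in purple. EGR1 lies at 8.36 and -1.05 and IER2 at 2.39 and -0.99, apart from EGR2 (2.85 and -0.033) and IER5 (1.57 and 0.19).

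The genes most like the set across the 5 poly-A libraries were found from the correlation with the mean log2(TPM + 1) profile of the 7 members that reached 1 TPM, among 10751 other genes above 10 TPM in at least 1 library. With only 5 points, of which SG stands far above the rest, these coefficients are a description. DUSP10, a MAP kinase phosphatase, came first (r = 0.9999), with 8.30 TPM in siCtrl, 14.8 in Total and 86.6 in SG. ZFP36, which binds AU-rich elements, came next (r = 0.9996), with 7.86, 12.8 and 50.2 TPM. SERPINH1, RAB1A and BORCS5 followed. Of the members themselves EGR2 was closest to the mean profile (r = 0.998) and IER5 farthest (r = 0.739).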

How the data were processed

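All values came from the deposited tables. The authors' TPM table (poly-A libraries, StringTie) and log10 eCLIP table list protein-coding genes, and the deposited rRNA-depleted table lists transcripts. Its header says TPM, but its values resolve into whole reads when multiplied by transcript length (tolerance 0.02 reads), so the deposited values were taken as RPKM that the authors made from read counts. Per the labels, reads were aligned with HISAT2 2.1.0 to hg38. The methods give GENCODE release 41, and release 44 was used here for names, lengths and coordinates (91.1% of transcripts matched). Genes with 1 library per condition were compared by ratios with a pseudocount of 1 TPM (none for the rRNA-depleted sums) and no test. eCLIP groups were fitted with limma 3.58.1 in R 4.3.3 on genes above 0 in at least 2 of 4 libraries, with trend and Benjamini-Hochberg adjustment at 0.05. The scripts were tested on simulated data. For limma the simulated libraries were of equal depth, so that test does not cover the unequal libraries of the main fit. Depth behind the TPM values is unknown. The size-matched inputs were not analysed here.

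The members and gene lists were chosen with earlier results of these data known. From each list the text may name the 3 largest and 3 smallest ratios among genes whose higher library exceeded 1, and the 5 genes most like the members' mean profile. ANAPC11, EIF6, ACTB, HSP90AB1 and the overlapping genes were named after their values were seen.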

Additional observations from a re-analysis of the deposited data

Results flagged for a closer look

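For 3 members the poly-A and rRNA-depleted libraries pointed in opposite directions after AS. The log2 ratio of Total to siCtrl was -0.31 for NR4A1, -0.63 for NR4A3 and -0.76 for IER5, whereas the log2 ratio of AS to untreated in rRNA-depleted RNA was 0.89, 1.62 and 1.57. The medians over all genes tested were also of opposite sign, at -0.41 and 0.28, and the share of genes with opposite signs was not counted. Once the median shift between Total and siCtrl was removed, the NR4A1 value was 0.05, so that NR4A3 and IER5 alone stayed opposite. With the median shift of the rRNA-depleted libraries removed, the AS to untreated ratios of NR4A3 and IER5 were 2.56 and 2.46. Each value rests on 1 library a side and the difference was not tested. The pairs of libraries also differed in siRNA transfection, in lysate clearing and in RNA selection, which cannot be told apart from it.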

How the results depend on the processing

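Of the counts of members called, those for AS in rRNA-depleted RNA stayed between 4 and 7 under most alternatives and fell to 2 (EGR1 and IER2) when the higher library had to exceed 10. On the transcript with the highest mean value NR4A1 was called, and EGR2, EGR3 and NR4A3, each under 1 there, were not. Without the filter EGR4 was called too. The count for Total against siCtrl fell from 2 to 1 (EGR1) at a fold above 4 and rose to 3 (EGR2 added, with NR4A3 called lower) at a pseudocount of 0.1, and that for siG3BP2 rose from 0 to 1 (NR4A3, lower) at a pseudocount of 0.1. Counts of SG-enriched members (4 to 6) and of members called with siG3BP1 (0) stayed within 1.5 times. For G3BP2 eCLIP the count of genes went from 2 to 0 with the replicate block, to 0 after scaling to the same total, alone or with the block, to 0 without the filter and to 1 for genes above 0 in all 4 libraries, and ran from 0 to 12 when 1 library was left out (12 without AS replicate 1, all lower with AS, 6 without AS replicate 2, of which 5 were lower, and 0 without either untreated replicate), whereas the 2 genes called with all libraries were higher. The causes were not tested. For G3BP1 it was 0 under every alternative, the replicate block included (480 genes at unadjusted p under 0.05 with it). Duplicates share only a number, and deviations of same-numbered libraries correlated at 0.1505 for G3BP1 and 0.0650 for G3BP2 across genes. With 1 library left out, the EGR1 change ran from -1.19 to -1.01 for G3BP1 and from -1.24 to -0.76 for G3BP2, and that of IER2 from -1.68 to -0.73 and from -1.04 to -0.53, in fits that assume that a lone library varies like the other group. Over all genes, the calls higher with AS (1611) ran from 263 to 6773, those lower in Total (2387) from 311 to 3209, those SG-enriched (8528) from 4505 to 8927, and those lower with siG3BP1 (243) and siG3BP2 (353) from 89 to 765 and from 125 to 1186. A single library per RNA-seq condition limits every RNA comparison.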
